A study of Homo sapiens with 8 samples.

Results

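The HOX genes are the 39 human genes with a HOXA, HOXB, HOXC or HOXD symbol followed by a number. They were taken by symbol from the 2 count tables of the series and make up 39 of the 58828 genes listed there. The HOXA cluster has 11 members (GRCh38 chr7:27092993-27200091, minus strand), the HOXB cluster has 10 members (chr17:48528526-48728750, minus strand), and the HOXC cluster (chr12:53938831-54056030, plus strand) and the HOXD cluster (chr2:176092721-176190907, plus strand) have 9 members each. All 39 are protein-coding genes in GENCODE release 44. The rule uses the symbol alone.

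RNA-seq was carried out on 22RV1 and DU145, a pair of established human prostate cancer cell lines. 22RV1 was derived from a xenograft of a primary tumour, and DU145 from a brain metastasis. Each line carried either the empty pLVX-TetOne-Puro lentiviral vector or the same vector with HA-tagged PAGE4, a cancer-testis antigen of the GAGE-related family, after puromycin selection. All the cells received doxycycline at 1 mg/L for at least 48 h to turn on the construct, the vector cells included, and were given PBS or 200 mM H2O2 (dose as labelled) for 12 h. The 8 libraries are therefore 22RV1 vector PBS, 22RV1 vector H2O2, 22RV1 PAGE4 PBS, 22RV1 PAGE4 H2O2, DU145 vector PBS, DU145 vector H2O2, DU145 PAGE4 PBS and DU145 PAGE4 H2O2, with 1 library a condition. Vector and PAGE4 cells of a line are 1 transduced population each, so an effect of PAGE4 and a difference between 2 populations cannot be told apart.

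Total counts ran from 25482984 to 43310401 a library, and the 22RV1 vector PBS library was the deepest. PAGE4 itself had 1 and 0 counts in the 22RV1 vector libraries against 1489 and 1179 in the PAGE4 libraries, and 1 and 1 against 1001 and 1431 in DU145. Against a floor of 3 counts in each vector library, this is at least 337-fold higher in every pair. All 7 genes listed as 22RV1 markers, HOXB13 among them, were higher in every 22RV1 library than in any DU145 library. Of 6 DU145 markers, 4 separated the lines in their direction, while CD44 and LGALS1 did not. Because RNA was taken from bulk cultures, fewer cells expressing a gene and less RNA per cell cannot be told apart.

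HOX proteins are homeodomain transcription factors that give cells their position along the body axis. Their genes lie in 4 clusters in the order in which they are used, from position 1 at the 3′ end (anterior) to position 13 at the 5′ end (posterior), and they bind DNA with the TALE cofactors of the PBX and MEIS families. Polycomb proteins keep the clusters silent, trithorax proteins keep them active, and retinoic acid opens them from the anterior end. In the prostate, the posterior genes are known for building the gland from the urogenital sinus, and HOXB13 remains on in the adult luminal epithelium.

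RefSeq promoter entries (GRCh38.p14) were found for 20 of the 39 members, with 26 distinct start sites. Only the 250 bases before each start were read, and 3 short motifs were looked for on both strands: TATAAA (the TATA box), CCAAT (the CCAAT box) and GGGCGG (the GC box). CCAAT was found in 17 of the 26 HOX windows and in 32.0% of the 35116 RefSeq windows of the same length. GGGCGG was found in 13 HOX windows against 42.6% of all windows, and TATAAA in 5 against 10.7%. The HOX windows held a median of 19.5 CG dinucleotides, and all windows a median of 11. The windows of 5 members that changed with H2O2 are printed below, 5′ to 3′ on the gene's strand, with any of the 3 motifs in capitals. HOXA11 (chr7:27185233-27185482, minus strand) rose in DU145 and holds none of the motifs. HOXA13 (chr7:27200092-27200341, minus strand) fell in both lines and has 4 GGGCGG matches, 1 CCAAT match and 40 CG dinucleotides, the highest number of the 26 windows. HOXA2 (chr7:27102684-27102933, minus strand) fell in DU145 and has 4 CCAAT matches and 8 CG dinucleotides. HOXC4 fell in both lines and HOXC5 in 22RV1. They share a start site in RefSeq (chr12:54016638-54016887, plus strand) that lies within the span of HOXC6 and has 2 CCAAT matches. A match describes letters only and says nothing of binding.
HOXA11: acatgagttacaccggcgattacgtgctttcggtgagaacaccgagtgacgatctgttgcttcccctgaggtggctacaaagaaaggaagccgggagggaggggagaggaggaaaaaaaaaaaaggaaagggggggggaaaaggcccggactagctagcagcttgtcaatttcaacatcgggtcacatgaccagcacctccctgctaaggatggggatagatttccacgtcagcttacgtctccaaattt
HOXA13: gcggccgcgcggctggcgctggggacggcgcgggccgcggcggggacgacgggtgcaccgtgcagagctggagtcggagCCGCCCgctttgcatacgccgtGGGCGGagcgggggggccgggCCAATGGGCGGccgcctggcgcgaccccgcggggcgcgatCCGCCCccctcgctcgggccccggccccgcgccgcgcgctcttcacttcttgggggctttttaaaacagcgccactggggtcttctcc
HOXA2: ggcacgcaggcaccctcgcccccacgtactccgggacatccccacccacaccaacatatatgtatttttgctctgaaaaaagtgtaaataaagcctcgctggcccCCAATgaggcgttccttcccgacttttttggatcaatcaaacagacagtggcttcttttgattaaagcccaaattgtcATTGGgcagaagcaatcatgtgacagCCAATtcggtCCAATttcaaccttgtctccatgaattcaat
HOXC4 and HOXC5: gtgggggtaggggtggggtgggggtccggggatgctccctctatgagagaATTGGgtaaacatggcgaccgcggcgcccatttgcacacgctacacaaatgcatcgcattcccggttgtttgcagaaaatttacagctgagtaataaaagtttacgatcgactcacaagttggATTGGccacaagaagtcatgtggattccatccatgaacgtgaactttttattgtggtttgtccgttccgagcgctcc

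The HOXC cluster also holds the miRNA gene MIR196A2 between HOXC10 and HOXC9. Its product miR-196a-5p (chr12:53991762-53991783, plus strand) is known to target HOXB8 and HOXC8 transcripts, and miR-196b-5p from the HOXA cluster (chr7:27169528-27169549, minus strand) has the same seed. The 2 mature RNAs are shown with their seed, bases 2 to 8, in capitals, because reads over MIR196A2 moved with the HOXC genes described below.
miR-196a-5p: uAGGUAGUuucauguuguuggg
miR-196b-5p: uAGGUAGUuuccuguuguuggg

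In 22RV1, 28 members had a mean raw count of at least 10 over the 4 libraries, and in DU145 26 members did, with 24 in common. In 22RV1 these were all 11 HOXA genes, 8 of 10 HOXB genes, all 9 HOXC genes and no HOXD gene. In DU145 they included 10 HOXA, 7 HOXB, 8 HOXC and 1 HOXD gene. 9 members (HOXB1, HOXD1, HOXD3, HOXD4, HOXD8, HOXD10, HOXD11, HOXD12 and HOXD13) stayed under a mean of 10 in both lines, with at most 13 counts in any library, so their levels were not detectable at this depth beyond a few reads. Levels below are counts divided by DESeq2 size factors over the 8 libraries, called normalised counts, and the 4 values of a line are always given in the order vector PBS, vector H2O2, PAGE4 PBS, PAGE4 H2O2. Levels of different single genes are compared only per kb of exon. Sums over several genes, and shares of such sums, use normalised counts without correction for gene length. On that scale HOXB13 (median 1422 normalised counts per kb) and HOXC10 (median 906) stood above the other members in 22RV1, while HOXB7 (median 547.5) and HOXB9 (median 537) were highest in DU145.

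**Figure D1:**
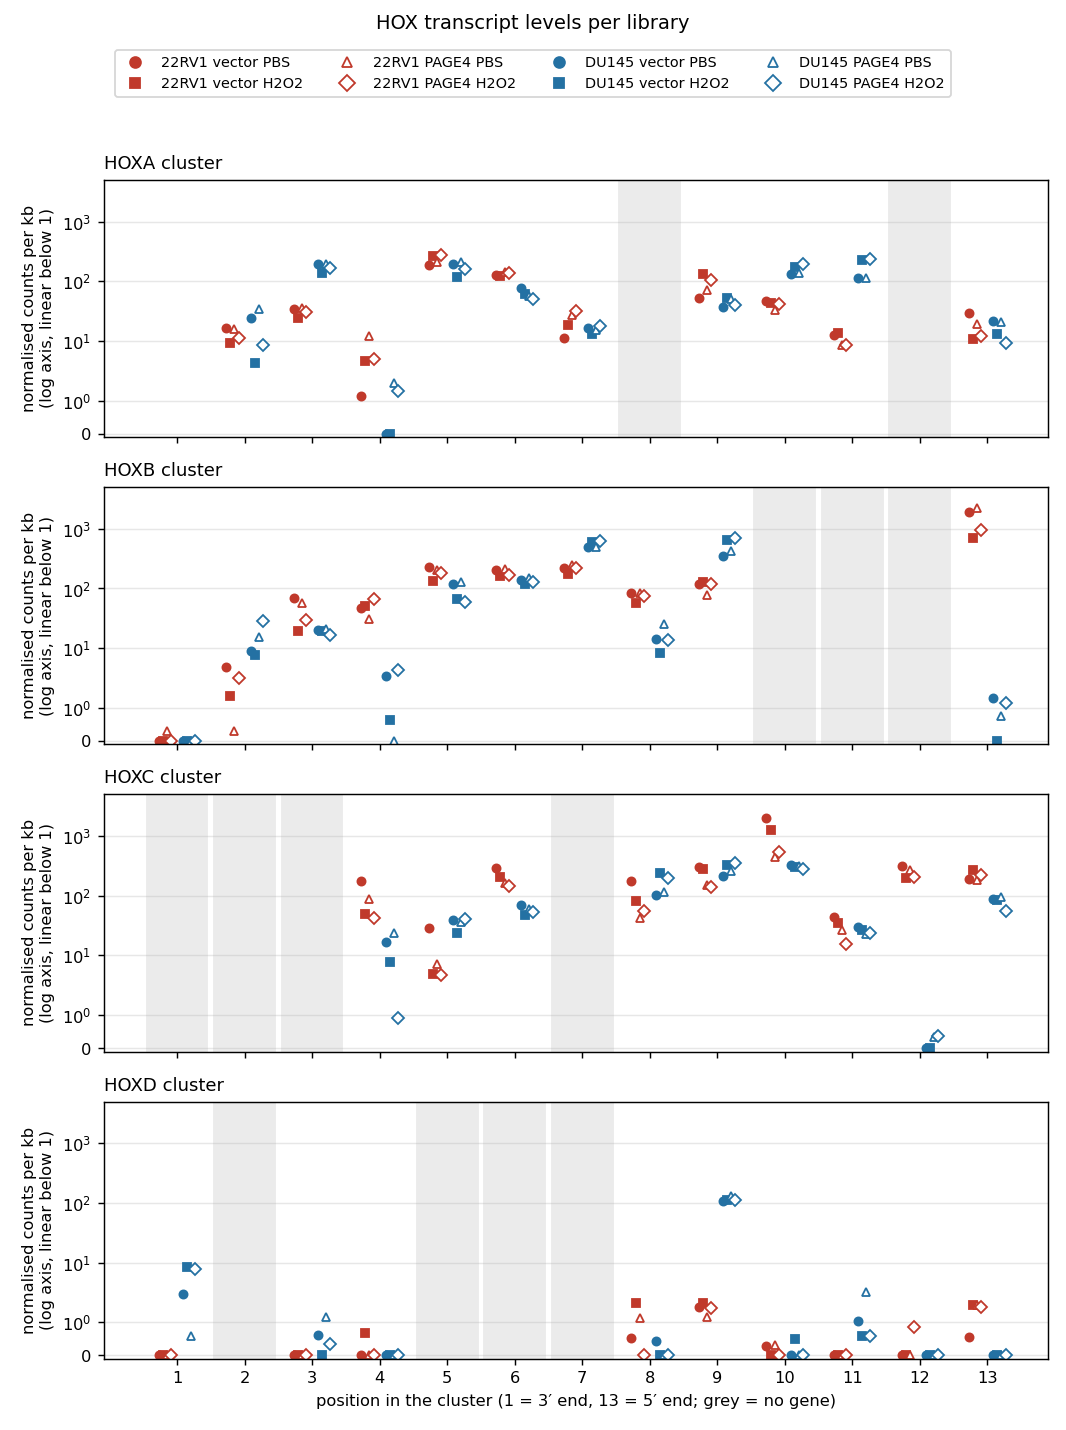
Normalised counts per kb of exon (log axis, linear below 1) for 38 of the 39 HOX genes by cluster and position, with 1 point a library: red for 22RV1, blue for DU145, filled for vector and open for PAGE4, with the shape giving construct and treatment. HOXB13 and HOXC12 are high in 22RV1 and near 0 in DU145, HOXD9 shows the reverse, and all the other HOXD genes lie under 10 in both lines.

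The share of HOX reads taken by each cluster differed between the lines. In 22RV1, HOXB took 33.5% to 64.2% of the normalised HOX counts of a library and HOXC 26.2% to 52.7%, while HOXA took 6.79% to 15.1%. HOXA was larger in DU145, with 32.4% to 37.8%, beside 32.4% to 38.6% for HOXB and 24.3% to 27.6% for HOXC. HOXD took 2.50% to 3.20% in DU145 and at most 0.132% in 22RV1. Among the 22RV1 libraries the summed HOX counts were lower with H2O2 (11230.4 and 9894.5) than with PBS (18298 and 13888.5), whereas in DU145 they were higher (8580.1 and 8958 against 7597 and 8102). HOXB13 alone made up 18.7% to 48.3% of the 22RV1 sum. In DU145, HOXB9 alone rose from 904.6 to 1672 in the vector culture and from 1103 to 1838 in the PAGE4 culture. Over the 29 members tested by edgeR (below), the median log2 change with H2O2 was -0.21 in 22RV1 and -0.18 in DU145. Of the 29 DU145 estimates, 10 were positive and 19 negative, so the higher sum there does not describe most members.

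To compare the lines, 22RV1 was tested against DU145 over the 8 libraries, with construct and treatment as blocks, by the quasi-likelihood test of edgeR and an adjusted p limit of 0.05. The genes tested needed a mean raw count of at least 10 over the 8 libraries, which 29 members and 20136 genes in all passed. 22 of the 29 members were called, 13 higher and 9 lower in 22RV1. The test called 62.9% of all genes, 33.1% higher and 29.9% lower. The median log2 difference was 0.43 over the 29 members and 0.08 over all genes, and the former was 0.24 without the vector H2O2 libraries and 0.29 without the PAGE4 PBS libraries. The libraries of a line share its cultures and no condition has a second library, so all p-values below measure the spread between these libraries only. In normalised counts the 4 libraries of each line did not overlap for 20 of the 29 members, 12 with 22RV1 above and 8 with DU145 above. The same held for 54.7% of all genes tested, 29.2% with 22RV1 above and 25.6% with DU145 above.

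The posterior genes at positions 12 and 13 held the widest gaps. HOXB13 had 5722, 2095, 6705.5 and 2920.5 normalised counts in 22RV1 and 4, 0, 2 and 3 raw reads in DU145. From the summed counts this is a 1696-fold difference (95% Clopper-Pearson interval 893.5 to 3710.4, counting error only). HOXC12, known from the hair follicle, had 1023, 649.5, 896 and 666 normalised counts in 22RV1 and 0, 0, 1 and 1 raw reads in DU145, a 1397-fold difference (interval 386 to 11537). Both genes passed the test (adjusted p = 3.18e-07 and 1.04e-06). HOXC13, a regulator of hair and nail keratins, had 442, 629.9, 429 and 523 normalised counts in 22RV1 and 207, 202, 223 and 132 in DU145, and was higher in 22RV1 (log2 difference ± SE of the edgeR fit, 1.41 ± 0.22, adjusted p = 8.78e-04). HOXA13, which is needed for the urogenital tract and the digits, had 150.5, 53.9, 97.8 and 61.0 in 22RV1 and 108, 66.2, 106.5 and 46.0 in DU145, with overlapping values (log2 difference 0.12, adjusted p = 0.707). HOXD13 and HOXD12 had at most 6 raw reads in any library.

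**Figure D2:**
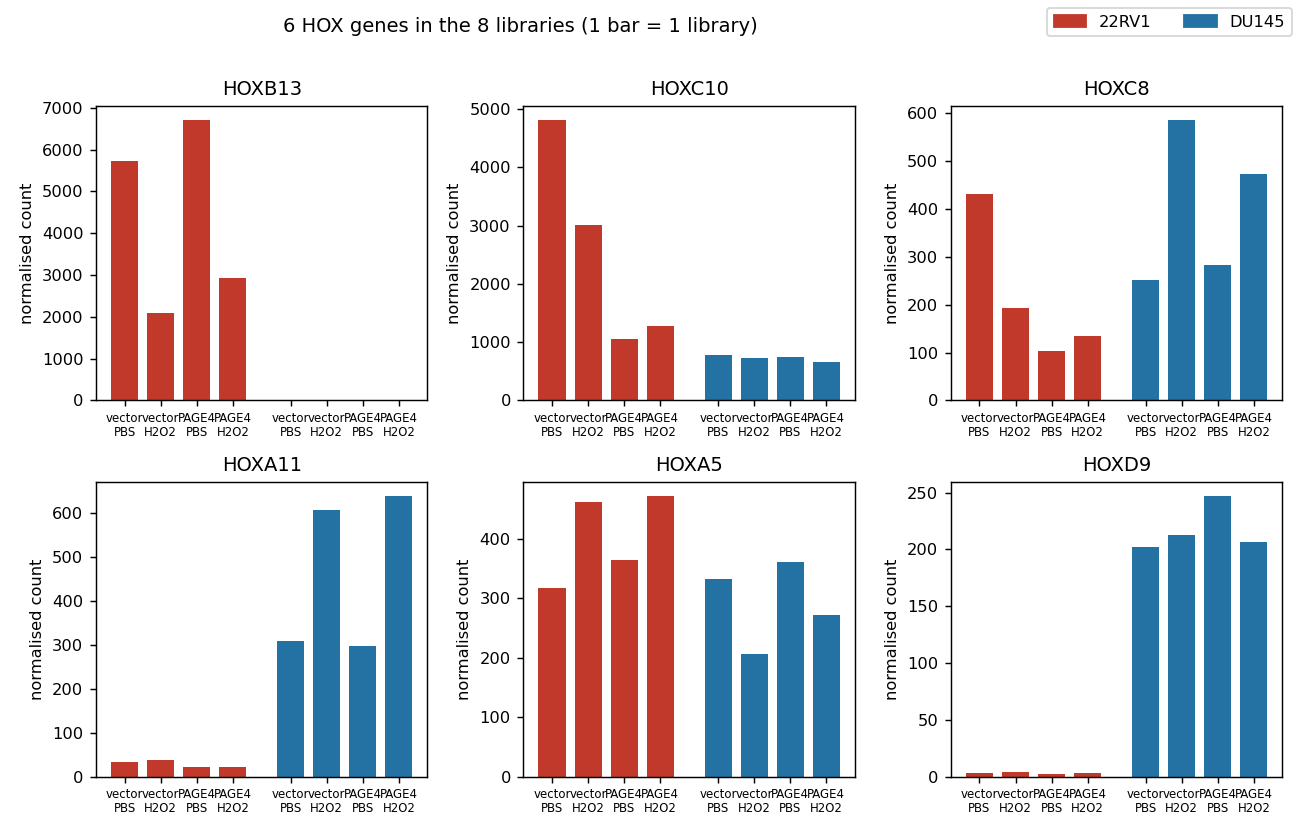
Normalised counts (linear axis from 0) of 6 HOX genes, with 1 bar for each of the 8 libraries, red for 22RV1 and blue for DU145. HOXB13 falls with H2O2 in both 22RV1 cultures, HOXC10 and HOXC8 are low in the 22RV1 PAGE4 libraries, and HOXA11 and HOXC8 rise with H2O2 in DU145.

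At positions 9 to 11, 2 of 8 tested members were called higher in 22RV1 and 4 lower, against 33.1% and 29.9% of all genes. HOXA11, a gene of the uterus, kidney and limb, had 33.0, 36.7, 22.5 and 22.9 normalised counts in 22RV1 and 308, 605, 297 and 637 in DU145 (-3.92 ± 0.29, adjusted p = 1.92e-05). HOXA10, its neighbour with a role in the uterus and in blood cells, had 176, 163, 122 and 152.5 in 22RV1 and 482, 635, 504 and 730.5 in DU145 (-1.93 ± 0.18, adjusted p = 6.97e-05). Both were lower in 22RV1, and their values did not overlap. HOXA9, best known from blood stem cells and leukaemia, was higher in 22RV1, with 159, 394, 217 and 314 against 112, 156, 155 and 123 (0.92 ± 0.24, adjusted p = 0.0117), and it was not called without the vector H2O2 libraries (0.77). In the HOXC cluster, HOXC10, a gene of the hindlimb spinal cord, had 4812, 3012, 1060.0 and 1284 in 22RV1 and 786, 726, 749.8 and 659.6 in DU145 (1.54 ± 0.34, adjusted p = 0.00497), and every 22RV1 library was above every DU145 library. Its lowest 22RV1 values were those of the PAGE4 libraries. HOXC9, which patterns thoracic motor neurons, had 513, 461, 254 and 233 in 22RV1 and 356, 546, 427 and 585 in DU145. HOXC11 had 144, 113, 87.0 and 50.1 in 22RV1 and 96.4, 86.2, 75.9 and 77.2 in DU145. The lines overlapped in both genes, and neither passed the test (log2 differences -0.44 and 0.15, adjusted p = 0.21 and 0.646). HOXB9, which acts in rib and mammary gland formation, was lower in 22RV1, with 302, 327, 197 and 302 against 905, 1672, 1103 and 1838 (-2.26 ± 0.19, adjusted p = 3.88e-05). HOXD9 was the HOXD gene with a clear signal, at 3.44, 3.91, 2.33 and 3.27 in 22RV1 and 202, 212, 247 and 207 in DU145. Its summed raw counts of 16 and 734 give a 67.1-fold higher level in DU145 (interval 41.0 to 118). HOXD10 and HOXD11 stayed at 6 raw reads or fewer.

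Of the 12 tested middle genes, positions 4 to 8, 7 were called higher in 22RV1 and 2 lower, against 33.1% and 29.9% of all genes. A pattern by position was not tested. HOXB4, which drives expansion of blood stem cells, had 94.2, 100, 62.1 and 132 normalised counts in 22RV1 and 6, 1, 0 and 7 raw reads in DU145, a 22.8-fold difference from the summed counts (interval 13.4 to 42.0). HOXB8, a gene of blood progenitors and of the spinal cord, had 201, 137, 205 and 178 against 33.6, 20.0, 60.0 and 32.4 (2.37 ± 0.27, adjusted p = 1.81e-04). HOXB5, which acts in gut and lung development, had 431, 252, 386 and 333 against 224, 122.5, 239 and 108 (1.07 ± 0.21, adjusted p = 0.0028). HOXB6 had 538, 427.5, 546 and 435 against 358, 315, 391 and 331 (0.48 ± 0.14, adjusted p = 0.0173). These 4 HOXB genes were all higher in 22RV1, by less for HOXB5 and HOXB6, and the HOXB6 call was lost without the vector PBS, vector H2O2 or PAGE4 PBS libraries (0.44 to 0.49). HOXB7 went the other way, with 331, 270.4, 383 and 338 against 762, 902, 758 and 941 (-1.35 ± 0.16, adjusted p = 1.89e-04). In the HOXC cluster, HOXC6, which is used in urine tests for prostate cancer, was higher in 22RV1 with 1008, 717.5, 561 and 506.5 against 241, 162.5, 209.5 and 183 (1.78 ± 0.19, adjusted p = 1.22e-04). HOXC4 had 485, 138, 242 and 118 against 46.0, 21.2, 64.6 and 2.49 (3.03 ± 0.46, adjusted p = 7.68e-04). HOXC5 had 46.1, 7.82, 11.6 and 7.63 against 63.9, 38.7, 58.9 and 64.7 and was called lower in 22RV1 (-1.94 ± 0.48, adjusted p = 0.00847), although its highest 22RV1 library lay inside the DU145 range. Exons of HOXC5 overlap those of other annotated genes over 67.3% of their length, so its reads are uncertain. HOXC8, which patterns the thoracic skeleton, had 431, 194, 103 and 134 against 252, 586, 283 and 474 and did not pass (log2 difference -1.05, adjusted p = 0.0615). Without the vector PBS libraries of both lines it passed, at -1.62, as did HOXC9, at -0.77.

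HOXA6 was called higher in 22RV1, with 161, 160.2, 184 and 174 normalised counts against 98.6, 78.7, 73.6 and 64.7 (1.12 ± 0.23, adjusted p = 0.00359). HOXA5, which acts in lung development, had 318, 463, 364 and 472 against 332, 206, 361 and 271. HOXA7 had 27.5, 44.5, 66.8 and 76.3 against 39.2, 31.2, 36.2 and 43.6. These values overlapped between the lines, and neither gene was called (log2 differences 0.47 and 0.43, adjusted p = 0.131 and 0.294). HOXA4 was under the count minimum of the test, with 3, 10, 27 and 8 raw reads in 22RV1 and 0, 0, 3 and 2 in DU145. The antisense RNA HOXA-AS3 shares exon bases with HOXA4, HOXA6 and HOXA7, and the strand used in counting is not stated, so reads of these genes and of HOXA-AS3 may be mixed. 47.8% of the HOXA4 exon bases, 40.1% of those of HOXA6 and 62.5% of those of HOXA7 overlap another gene.

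Of the 5 tested anterior genes, positions 1 to 3, 3 were called lower in 22RV1 and 1 higher, against 29.9% and 33.1% of all genes. HOXA3, a gene of the pharyngeal arches and the thymus, had 149.8, 106, 155 and 131 normalised counts in 22RV1 and 838, 582, 845 and 728 in DU145 (-2.46 ± 0.14, adjusted p = 6.32e-06). HOXB2 was low in both lines, with 11.7, 3.91, 0.777 and 7.63 against 22.4, 18.7, 37.4 and 70.9 (-2.64 ± 0.68, adjusted p = 0.0102). HOXB3 was called higher in 22RV1, with 513.5, 146, 426 and 221 against 148, 145, 153 and 124 (1.04 ± 0.30, adjusted p = 0.0167), and its 22RV1 vector H2O2 library lay inside the DU145 range. That call was lost without the vector PBS (0.78) or the PAGE4 PBS libraries (0.90). HOXA2, a gene of the second pharyngeal arch, had 38.5, 21.9, 36.5 and 26.1 against 56.0, 10.0, 80.4 and 19.9, and its values overlapped (log2 difference -0.15, adjusted p = 0.78). HOXB1 had 1 read in all, and HOXD1 and HOXD3 had reads in DU145 only, at most 13 and 4 in a library.

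Whether PAGE4 moves HOX genes was asked with pairs of libraries of the same line and treatment. In 22RV1, a run of adjacent HOXC genes was lower with PAGE4, while no member was called in DU145. In the fit for 22RV1, edgeR called 4 of 29 members, all lower: HOXC10 (-1.74 ± 0.15, adjusted p = 1.04e-07), HOXC8 (-1.36 ± 0.26, adjusted p = 0.00246), HOXC9 (-1.03 ± 0.16, adjusted p = 2.25e-04) and HOXC6 (-0.70 ± 0.15, adjusted p = 0.00668). It called 5.33% of all genes, and 2.74% as lower. All 9 HOXC members had a negative estimate, with a median of -0.96, against -0.18 over the 29 members and -0.01 over all genes tested. Without the 22RV1 PBS pair, the median over the 29 members was 0.01. HOXC11, on the 5′ side of the run, missed the limit (-0.96 ± 0.28, adjusted p = 0.0558). HOXC4 and HOXC5 at the 3′ end missed it too (-0.68 ± 0.31 and -1.34 ± 0.57, adjusted p = 0.249 and 0.221).

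The counts show this library by library. HOXC10 went from 4812 normalised counts in the vector to 1060 in the PAGE4 library with PBS, and from 3012 to 1284 with H2O2. These are log2 ratios of -2.18 and -1.23. HOXC8 had ratios of -2.06 and -0.53, and for both genes the gap was wider with PBS than with H2O2. HOXC9 differed little between the PBS pair (-1.01) and the H2O2 pair (-0.98). HOXC6 had ratios of -0.85 and -0.50, and HOXC11 of -0.72 and -1.17. With PBS, HOXC4 went from 485 to 242 normalised counts and HOXC5 from 46.1 to 11.6. With H2O2 their ratios were -0.23 and -0.03. At the 5′ end, HOXC12 (-0.19 and 0.04) and HOXC13 (-0.04 and -0.27) had ratios nearer to 0 than the genes from HOXC11 to HOXC6. Neither was called (adjusted p = 0.804 and 0.674). Without the PBS pair of 22RV1, HOXC10 and HOXC9 were still called, while HOXC8 (-0.54) and HOXC6 (-0.51) were not.

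**Figure D3:**
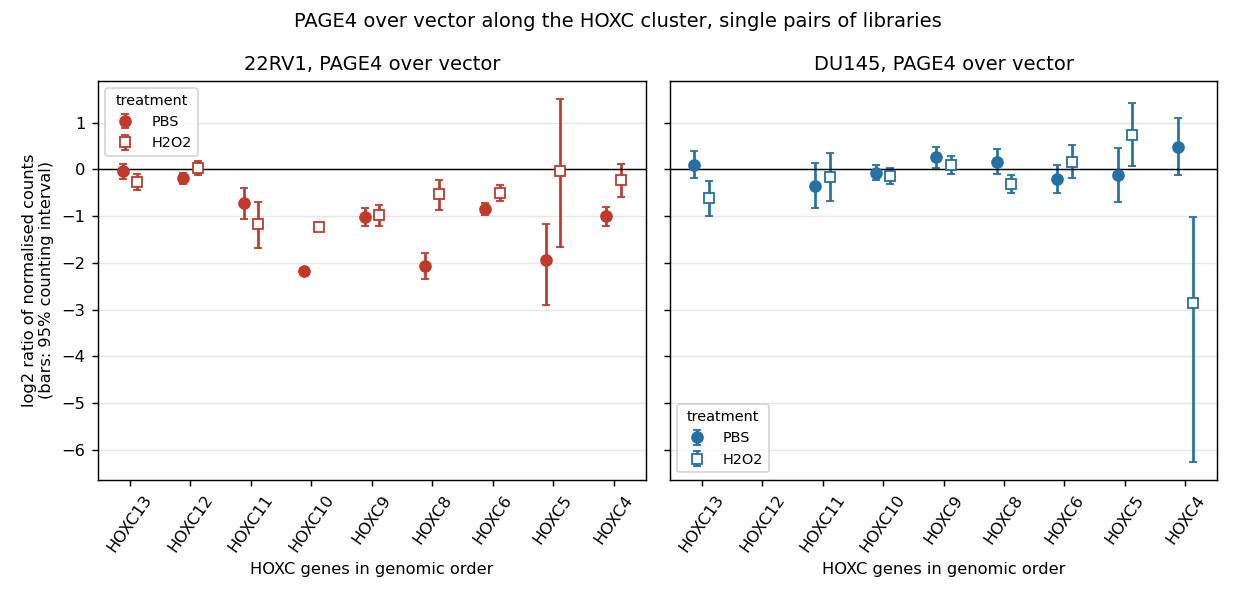
Log2 ratio of normalised counts, PAGE4 over vector, for the 9 HOXC genes in genomic order, in 22RV1 (left) and DU145 (right), with filled circles for the PBS pair and open squares for the H2O2 pair. Bars are 95% Clopper-Pearson intervals for counting error only, and HOXC12 in DU145 is left out because it had 2 reads in all. In 22RV1 the ratios from HOXC11 to HOXC4 lie under 0 in both pairs, with HOXC4 and HOXC5 near 0 in the H2O2 pair (-0.23 and -0.03). HOXC10 lies at -2.18 and -1.23 in 22RV1 and at -0.07 and -0.14 in DU145.

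RNAs inside the same stretch were lower too. HOXC-AS2, an antisense RNA over the HOXC9 region, had 441, 218, 87 and 75 raw reads in 22RV1 and was called lower with PAGE4 (-1.66 ± 0.29, adjusted p = 8.77e-04). HOXC-AS1, its neighbour, had 133, 67, 29 and 27 and was called lower as well (-1.48 ± 0.40, adjusted p = 0.0333). MIR196A2 had 41, 14, 1 and 0 reads, and the summed counts give a level 44.4 times higher in the vector libraries (interval 7.64 to 1784, counting error only). Reads over this short gene in an RNA library of this kind are not a measure of the mature miRNA. HOXC-AS3, beside HOXC10, had 149, 112, 99 and 64 reads, and HOTAIR, between HOXC12 and HOXC11, had 112, 58, 92 and 25. HOXC-AS2 shares exon bases with HOXC9 and HOXC6, and 9.8% of the HOXC9 exon bases overlap another gene. HOXC-AS3 and HOTAIR were not called (log2 -0.40 and -0.40, adjusted p = 0.616 and 0.732). Of 5 genes flanking the HOXC cluster, 1 was called with PAGE4 in 22RV1, HNRNPA1 (0.27 ± 0.07, adjusted p = 0.0221), and it was higher.

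In DU145, edgeR called 0 of 29 members with PAGE4, 1 member had an unadjusted p under 0.05 (HOXB8, log2 difference 0.78), and DESeq2's Wald test called 0. Of all 20136 genes, edgeR called 0.328% and the Wald test 0.268%, and 1632 had an unadjusted p under 0.05 in edgeR. HOXC10 had 786 and 750 normalised counts with PBS and 726 and 660 with H2O2, vector first in each pair. The difference between the lines was tested as an interaction, which 2 members passed, HOXC10 (-1.64 ± 0.21, adjusted p = 1.02e-04) and HOXC9 (-1.20 ± 0.22, adjusted p = 0.00327), against 2.49% of all genes. The HOXC9 call was lost without the PBS pair of DU145 (-1.12), while without the H2O2 pair of 22RV1 5 members were called. HOXC8 missed the limit (-1.28 ± 0.36, adjusted p = 0.0624), and so did HOXC6 (adjusted p = 0.159). Over both lines, edgeR called 0 of 29 members and 0.189% of all genes. 5 members had an unadjusted p under 0.05 there, as did 1641 of all 20136 genes. The Wald test called 0 members as well, and 0.452% of all genes.

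Outside HOXC, no member was called with PAGE4 in either line. HOXB13 was somewhat higher in the 22RV1 PAGE4 libraries, with log2 ratios of 0.23 and 0.48, but it missed the limit (adjusted p = 0.0822). HOXA7 had an estimate of 0.99 and HOXA11 of -0.64 in 22RV1 (adjusted p = 0.156 and 0.257). Other genes that mark the lines moved in these same libraries. Among the 22RV1 markers, FOLH1 was lower with PAGE4 (-0.96 ± 0.14, adjusted p = 1.22e-04), and KLK2 was higher, while KRT7 and LGALS1 of the DU145 markers were higher and VIM was lower. The summed level of the 7 markers of 22RV1 was 54206 and 20456 in the vector libraries and 52488 and 27594 in the PAGE4 libraries, with PBS first, and that of the 6 DU145 markers was 6988 and 8219 against 8899 and 10570. CD44 and LGALS1, which did not separate the lines as DU145 markers, made up most of the DU145 marker sum in each 22RV1 library. They had 2759 to 6562 and 2166.5 to 4408 normalised counts there. The part of the markers in the HOXC result was not tested.

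The study took genes by a fold change over 1.5. That limit was applied here to PAGE4 against vector with H2O2, with 1 library on each side, so no test was made. With a mean normalised count of at least 10 over the line's libraries, 27 members could be examined in 22RV1. 6 of them were past 1.5-fold, against 21.4% of 19444 genes. HOXC10 (log2 ratio -1.23), HOXC11 (-1.17), HOXC9 (-0.98) and HOXA11 (-0.67) were lower, and HOXA7 (0.77) and HOXB3 (0.60) were higher. In DU145, 6 of 26 members were past 1.5-fold, against 16.9% of 18784 genes. HOXB2 (1.89), HOXA2 (0.96), HOXC5 (0.73) and HOXB8 (0.68) were higher there, and HOXC4 (-2.86, from 17 and 2 raw reads) and HOXC13 (-0.62) were lower. No member was past 1.5-fold in the same direction in both lines. The matching share over all genes was not taken, so this is no result about the HOX genes. The shares of members past 1.5-fold are near those of all genes in 22RV1 and somewhat above them in DU145, where 5 of the 6 members had at most 57 raw reads in either library.

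H2O2 against PBS was compared within each culture. Over the 4 cultures, edgeR called 6 of 29 members, against 22.8% of all genes. HOXB9 was higher (0.59 ± 0.14, adjusted p = 0.0243), and HOXC4 (-1.73 ± 0.43, adjusted p = 0.0262), HOXA2 (-1.38 ± 0.41, adjusted p = 0.0479), HOXB13 (-1.28 ± 0.21, adjusted p = 0.00635), HOXA13 (-1.02 ± 0.24, adjusted p = 0.0229) and HOXB5 (-0.74 ± 0.20, adjusted p = 0.033) were lower. The 5 lower ones lie in 3 clusters. None of the 6 calls held in all 4 fits that left out 1 culture. Without 22RV1 vector 1 member was called in all, against 11.5% of all genes.

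In 22RV1, the member with the most reads over the 4 libraries, HOXB13, was lower with H2O2. It went from 5722 to 2095 normalised counts in the vector culture and from 6705.5 to 2920.5 in the PAGE4 culture, log2 ratios of -1.45 and -1.20. Over both cultures the difference was -1.30 ± 0.11 (SE, adjusted p = 1.03e-08). All 7 listed 22RV1 markers, HOXB13 included, were lower with H2O2 in 22RV1, with KLK3, which codes for prostate-specific antigen, at -2.20. In all, 9 of 29 members were called, 3 higher and 6 lower, while the test called 31.6% of all genes, 15.0% higher and 16.7% lower. The 3 higher ones all belong to the HOXA cluster, with HOXA9 (0.95 ± 0.23, adjusted p = 0.00368) and HOXA5 (0.48 ± 0.16, adjusted p = 0.0281) among them. HOXC5 (-1.76 ± 0.58, adjusted p = 0.0241), HOXC4 (-1.42 ± 0.31, adjusted p = 0.0013), HOXB3 (-1.36 ± 0.21, adjusted p = 5.70e-05), HOXA13 (-1.07 ± 0.31, adjusted p = 0.0106) and HOXC12 (-0.52 ± 0.15, adjusted p = 0.0124) were lower besides HOXB13. Without the vector culture, 3 members were called, HOXB13 and HOXB3 among them, and without the PAGE4 culture 13.

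**Figure D4:**
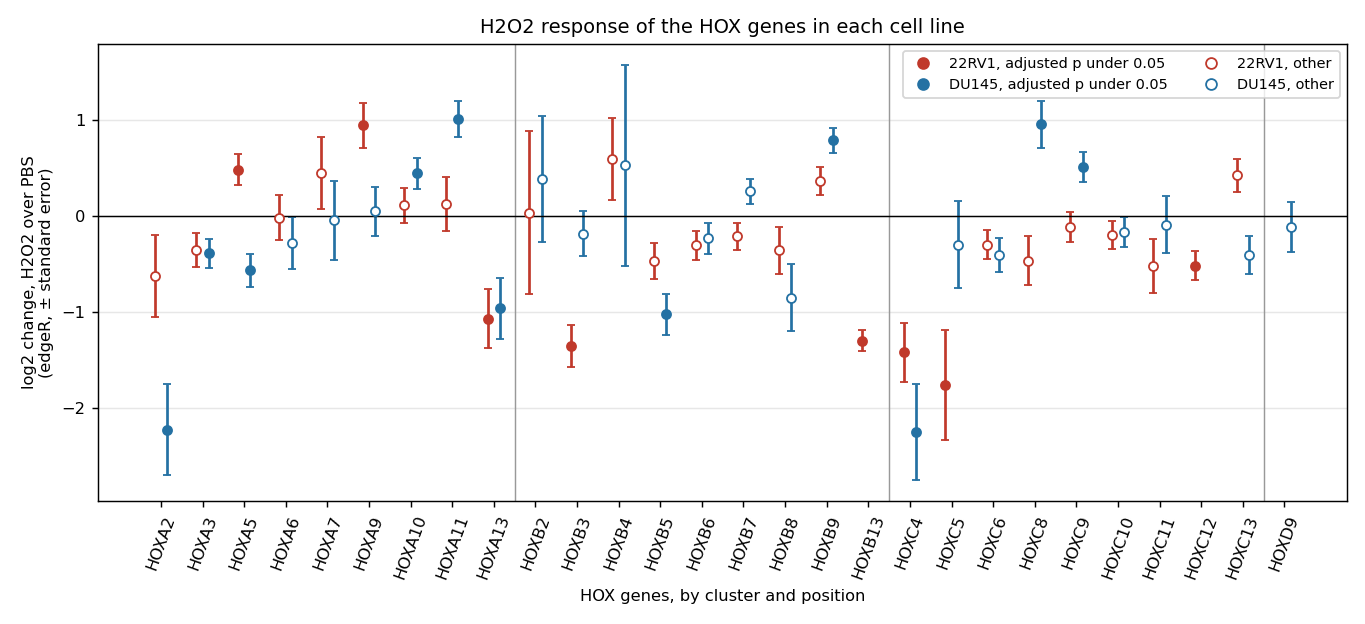
Log2 change with H2O2 over PBS in 22RV1 (red) and DU145 (blue) for 28 of the 29 tested HOX genes by cluster and position, with bars for the standard error of the edgeR fit and filled points for an adjusted p under 0.05. HOXB13 and HOXC12 in DU145 and HOXD9 in 22RV1 are left out for their few reads. HOXA9 rises in 22RV1 (0.95), HOXA11 and HOXC8 rise in DU145 (1.02 and 0.96), and HOXA13 and HOXC4 fall in both lines.

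In DU145, HOXC8 and 4 of the 8 tested genes at positions 9 to 11 rose with H2O2. HOXA11 went from 308 to 605 normalised counts in the vector culture and from 297 to 637 in the PAGE4 culture (1.02 ± 0.19, adjusted p = 1.85e-04). HOXC8 went from 252 to 586 and from 283 to 474 (0.96 ± 0.24, adjusted p = 0.00323). HOXB9 went from 904.6 to 1672 and from 1103 to 1838 (0.79 ± 0.13, adjusted p = 5.11e-05). HOXC9 (0.51 ± 0.15, adjusted p = 0.0111) and HOXA10 (0.44 ± 0.16, adjusted p = 0.0349) rose by less. HOXB8, at the same position as HOXC8, went from 33.6 to 20.0 and from 60.0 to 32.4 and was not called (-0.85 ± 0.35, adjusted p = 0.0547). The lower ones were HOXC4 (-2.26 ± 0.50, adjusted p = 0.00102), HOXA2 (-2.23 ± 0.47, adjusted p = 6.75e-04), HOXB5 (-1.03 ± 0.22, adjusted p = 6.05e-04), HOXA13 (-0.96 ± 0.32, adjusted p = 0.0207), HOXA5 (-0.57 ± 0.17, adjusted p = 0.0123) and HOXA3 (-0.39 ± 0.15, adjusted p = 0.0459). HOXC4 had 57 and 2 raw reads in the PAGE4 culture, and its call did not hold without that culture. This makes 11 of 29 members, 5 higher and 6 lower, against 41.3% of all genes, 19.0% higher and 22.4% lower. In both lines the share of members called was thus near that of all genes. Without the DU145 PAGE4 culture 5 members were called, and without the DU145 vector culture 7, when HOXC8 (0.72) was lost. HOXA11, HOXB9, HOXA2 and HOXB5 were called in both of these fits, and HOXA13, HOXA10, HOXC9, HOXA5 and HOXA3 in neither.

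The test of the interaction asked which members responded differently in the lines. It called 6 of 29 (20.7%), a share near the 19.1% of all genes. HOXA5 was called in opposite directions, from 318 to 463 and from 364 to 472 normalised counts in 22RV1 and from 332 to 206 and from 361 to 271 in DU145 (difference 1.05 ± 0.24, adjusted p = 0.00356). HOXC8 rose in DU145 in both cultures but in 22RV1 went from 431 to 194 in the vector and from 103 to 134 in the PAGE4 culture (-1.42 ± 0.35, adjusted p = 0.0071). HOXB3 fell in 22RV1, from 514 to 146 and from 426 to 221, and lay between 124 and 153 in all DU145 libraries (-1.17 ± 0.32, adjusted p = 0.0129). HOXC13 (0.83 ± 0.27, adjusted p = 0.0328) and HOXC9 (-0.63 ± 0.22, adjusted p = 0.0497) passed more narrowly. The calls of HOXC8 and HOXB3 were lost without the vector culture of either line. The call of HOXA5 was lost without DU145 vector (0.92), that of HOXC13 without 22RV1 vector or DU145 PAGE4, and that of HOXC9 without 22RV1 vector or either DU145 culture. Without 22RV1 vector 2 members were called, and without 22RV1 PAGE4 10.

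The other RNAs of the clusters followed their neighbours in part. Of 31 listed RNAs, 27 were in the tables and 16 were tested, of which 7 were called higher and 6 lower in 22RV1. The same test called 33.1% of all genes higher and 29.9% lower. PRAC1 and PRAC2, which lie beside HOXB13 and are known from the prostate and the distal colon, had 836 and 1831 summed reads in 22RV1 and 0 in DU145. Against a floor of 3 counts over the DU145 group, they were at least 191-fold and 417.5-fold higher in 22RV1. Both were lower with H2O2 in 22RV1 (-1.07 ± 0.30, adjusted p = 0.00899, and -0.73 ± 0.21, adjusted p = 0.0122), as HOXB13 was. HAGLR, antisense to the HOXD cluster, had 405 reads in DU145 and 0 in 22RV1, at least 197-fold higher. HOXA11-AS was lower in 22RV1, as was HOXA11 (-3.43 ± 0.32, adjusted p = 6.25e-05), but unlike HOXA11 it did not pass the test with H2O2 in DU145 (log2 -0.04, adjusted p = 0.955). 27.2% of the HOXA11 exon bases lie under HOXA11-AS. HOTAIRM1, at the 3′ end of the HOXA cluster, was called higher with H2O2 in 22RV1 (1.17 ± 0.32, adjusted p = 0.00775), mostly through the vector culture. It had 60 and 179 raw reads there, PBS first, and 61 and 59 in the PAGE4 culture, whose H2O2 library was the least deep. HOXA-AS2 (-1.48 ± 0.27, adjusted p = 1.82e-04) and HOTAIR (-1.64 ± 0.53, adjusted p = 0.0177) were called lower with H2O2 in DU145. For HOTAIR this rests mostly on the PAGE4 culture, with 66 and 6 raw reads, PBS first, against 37 and 25 in the vector culture. With PAGE4, 2 of the 16 RNAs were called in 22RV1 and 0 in DU145, against 5.33% and 0.328% of all genes.

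For the lists that follow, the same tests called 62.9% of all genes between the lines, 31.6% with H2O2 in 22RV1, 41.3% with H2O2 in DU145 and 5.33% with PAGE4 in 22RV1. Among the TALE cofactors, 6 of 8 tested genes were called between the lines, 1 higher and 5 lower in 22RV1. MEIS2 (-6.14 ± 0.27, adjusted p = 1.86e-06) and PBX3 (-1.67 ± 0.15, adjusted p = 4.38e-05) were lower. With PAGE4, MEIS3 alone of the 8 was called in 22RV1 (-0.65 ± 0.19, adjusted p = 0.0471). Of 6 listed partners of HOXB13, 5 were called higher in 22RV1 than in DU145, FOXA1 among them (1.99 ± 0.11, adjusted p = 5.28e-06), and 3 were lower with H2O2 in each line.

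Polycomb genes were called for 20 of 27 between the lines, 8 higher in 22RV1, led by CBX7 (2.14 ± 0.16, adjusted p = 1.85e-05), and 12 lower, led by PHF19 (-3.63 ± 0.24, adjusted p = 1.16e-05). With H2O2, 9 of the 27 were called in 22RV1, near the 31.6% of all genes, and 20 in DU145, where 41.3% of all genes were called, with CBX7 lower in both (-0.88 and -1.20) and PCGF1 higher in both (0.65 and 1.14). With PAGE4 in 22RV1, PHF19 (-0.57 ± 0.12, adjusted p = 0.00509) and PCGF5 (-0.39 ± 0.09, adjusted p = 0.016) were called, both lower. Of 18 trithorax genes, 14 were called between the lines, 8 with H2O2 in 22RV1, 12 with H2O2 in DU145 and 0 with PAGE4 in 22RV1. KDM6B, which removes the H3K27 methyl marks set by polycomb, was higher with H2O2 in 22RV1 (0.65) and in DU145 (1.90).

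Of 12 tested genes of retinoic acid synthesis and response, 10 were called between the lines, 3 higher and 7 lower in 22RV1. ALDH1A1 had 387 to 1921 raw reads in 22RV1 and 0 to 9 in DU145, and the receptor gene RARB had 153 to 620 and 2 to 9. ALDH1A3 had 3 to 13 raw reads in 22RV1 and 993 to 1545 in DU145, and CYP26B1 had 14 to 115 and 793 to 1578. With H2O2, CRABP2, a carrier of retinoic acid, was higher in both lines (1.67 in 22RV1 and 1.22 in DU145). With PAGE4 in 22RV1, 5 of the 12 were called. CYP26B1, which breaks down retinoic acid, was higher (2.62 ± 0.27, adjusted p = 2.22e-06), and ALDH1A1, which makes it, was lower (-1.15 ± 0.16, adjusted p = 6.14e-05), as was RXRA (-0.80 ± 0.10, adjusted p = 2.15e-05). Of the genes that flank the clusters, 16 of 25 tested were called between the lines, and with PAGE4 in 22RV1 1 of 6 flanking HOXA, 0 of 9 flanking HOXB, 1 of 5 flanking HOXC and 0 of 5 flanking HOXD.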

How the data were processed

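RNA-seq was carried out on 8 libraries, 1 for each condition of line, construct and treatment. The submitters' processing notes name HISAT2 2.1.0, featureCounts 1.6.0 and GRCh38, and the authors deposited raw counts for 58828 genes in 1 table a line. The annotation and strand setting are not given in the sources used here, and the RNA extraction is described as Trizol in the labels and as a column kit in the methods. Every column was mapped to a sample by its name. Exons and positions were taken from GENCODE release 44.

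Counts were tested by edgeR 4.0.16 (quasi-likelihood, TMM, Benjamini-Hochberg over all 20136 genes with a mean count of at least 10, adjusted p limit 0.05), with R 4.3.3. Each fit held all 8 libraries and blocked on the pairs it compared. Tests were checked on simulated data. Normalised counts used size factors of DESeq2 1.42.0, and pair ratios added a pseudocount of 0.5. Clopper-Pearson intervals (95%, scipy 1.17.1) and floors of 3 counts cover counting error only. Library totals of 25482984 to 43310401 limit precision for members with few reads. Alternatives were DESeq2 size factors, DESeq2's Wald test, no count minimum and leaving out each pair. Counts per library are given for members with a mean of at least 10 in 1 line. Genes that are no members come from fixed lists (RNAs in the clusters, TALE cofactors, polycomb, trithorax, retinoid, flanking, HOXB13 partners, line markers), and of the lists other than the cluster RNAs and markers up to 2 called genes in each direction were named. The members and lists were chosen with earlier results of these data known. Some genes are not reported here.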

Additional observations from a re-analysis of the deposited data

Results flagged for a closer look

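The response to H2O2 differed between the lines for 6 of 29 HOX genes by the interaction test of edgeR (22RV1 minus DU145, log2). This share was near the 19.1% of all genes called. Each H2O2 call named here was lost in some fit that left out a culture. The estimates of HOXA5 (difference 1.05) and HOXC13 (difference 0.83) were positive in 22RV1 and negative in DU145. Those of HOXC8 (difference -1.42) and HOXC9 (difference -0.63) were negative in 22RV1 and positive in DU145. That of HOXB3 (difference -1.17) was negative in both lines and lower in 22RV1. The response to PAGE4 differed for 2 of 29 members, HOXC10 (-1.64) and HOXC9 (-1.20), both lower in 22RV1, against 2.49% of all genes. The HOXC9 call was lost without the PBS pair of DU145. Both effects in each line rest on 2 pairs of libraries.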

How the results depend on the processing

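No call of a single HOX gene turned its direction under the alternatives run. The median over the 29 members did without the 22RV1 PBS pair, from -0.18 to 0.01 for PAGE4 in 22RV1 and from -0.07 to 0.10 over both lines. For the H2O2 effect differing between lines, the median also turned. It went from -0.03 to 0.2 without the 22RV1 vector culture and to 0.19 without the DU145 PAGE4 culture. Without a count minimum, 2 of 39 members were called for PAGE4 over both lines in place of 0, against 1.16% of 41771 genes. With DESeq2's Wald test, 4 members were called for H2O2 in 22RV1 (9 with edgeR), 7 in DU145 (11) and 4 for their difference (6), where it called 22.8%, 33.1% and 13.9% of all genes. Past 1.5-fold with H2O2, no count minimum gave 10 of 36 members in 22RV1 and 12 of 35 in DU145, against 43% and 39.8% of all genes. A limit of 2-fold gave 2 in each line (9.19% and 7.60% of all genes), and a mean of at least 50 gave 2 in DU145 (5.37%), each against 6. The cause of the Wald difference was not tested, while the other settings change the genes or folds admitted. DESeq2 size factors kept 59 of 60 calls of single members and lost 1.

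Leaving out each pair of libraries in turn gave 20 to 22 members between the lines (55.7% to 57.0% of all genes), 1 to 6 with H2O2 over both lines (9.64% to 19.5%), 3 to 13 with H2O2 in 22RV1 (17.7% to 29.7%), 5 to 12 in DU145 (24.9% to 45.3%) and 2 to 10 for their difference (9.24% to 20.2%). It gave 0 with PAGE4 over both lines, 2 to 5 in 22RV1 (3.28% to 6.80%), 0 in DU145 and 1 to 5 for their difference (0.700% to 5.47%). For PAGE4 over both lines, these fits called 0.0546% to 0.298% of all genes. For PAGE4 in DU145, the fits that kept both DU145 pairs called 1.28% and 1.40% of all genes. With 29 members, 0 calls are little different from such shares. All fits of these comparisons block on the pairs of libraries they compare, and the labels give no replicate numbers for a further block. Depth limits the HOXD genes other than HOXD9, HOXB1, and HOXB13 and HOXC12 in DU145.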
